A study of Mus musculus with 8 samples.

Results

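The proteasome genes were taken as all protein-coding genes whose symbol begins with Psm, a letter from a to g and a digit. There were 51 such genes among the 55414 gene IDs of the count table. Their RNA levels were measured in Paneth cells, which secrete antimicrobial peptides at the bottom of intestinal crypts and were purified here from the small intestine by FACS. In the TG group (4 libraries), the mice were transgenic and made diphtheria toxin in their Paneth cells. The experiment is listed by the study as RNA profiling of sorted cells following the depletion of mature Paneth cells. In the WT group (4 libraries), the mice were wild type. The study describes its sorted samples as coming from individual C57BL/6J mice. The age of these mice, the promoter that drives the toxin and the number of founder lines were not stated for these mice. Diphtheria toxin inactivates elongation factor 2 and thereby blocks protein synthesis.

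The proteasome is the protease that degrades proteins tagged with ubiquitin. Its barrel, the core particle, is built of alpha rings and beta rings, and some of the beta subunits carry the proteolytic sites. The regulatory particle caps the barrel, binds and removes ubiquitin chains and unfolds the substrate with a ring of ATPases, and core and regulatory particle together form the 26S proteasome. Interferon induces alternative catalytic subunits (Psmb8, Psmb9 and Psmb10) and the PA28 activator (Psme1 and Psme2), and particles with these subunits are called immunoproteasomes and favour the peptides that MHC class I molecules present.

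Of the 51 genes, 49 passed the low-count filter. Psma8, a testis-specific alpha subunit, and Psmb11, a thymus-specific beta subunit, had 0 counts in all 8 libraries. Psmc3ip, a recombination factor, Psme2b and Psme3ip1 were counted because their symbols match, with no subunit role assigned to them. Total counts per library ranged from 13107397 to 16218434, and the 51 genes took 0.165 to 0.245% of them. Values below are CPM, counts divided by the TMM-scaled library size and multiplied by 1e6, unless another scale is named. TMM scaling adjusts the library sizes so that the bulk of the genes has no shift between libraries. The libraries labelled replicates 1 and 2 had no count on 4 Y-linked genes in both groups, and those labelled 3 and 4 had 897 to 1564, so results are also given within these subsets.

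The sort was checked against marker genes. The summed level of 7 Paneth genes, among them Lyz1 and Defa24, was 371000 to 455000 CPM in TG and 352000 to 530000 CPM in WT. Of these 7 genes, 3 were lower in TG: Mptx2 (log2 fold change -1.35, adjusted p = 0.00116, edgeR), Mmp7 (-0.59, adjusted p = 0.0179) and Ang4 (-0.57, adjusted p = 0.037). None of 12 immune genes passed the filter, their sum was at most 2.26 CPM in any library, and Cd4, Adgre1 and Csf1r were at 0. The 11 enterocyte genes were all fitted higher in TG and 5 passed the test, with sums of 522 to 689 CPM in TG and 354 to 455 CPM in WT. The enterocyte sums did not overlap between the groups. Of 4 stem cell genes, 1 was lower, Smoc2 (-0.35, adjusted p = 0.0139, edgeR, and 0.199 with total counts), and the sums overlapped (1620 to 2360 CPM in TG and 1550 to 2230 CPM in WT). Of 7 goblet cell genes 0 were called by edgeR or DESeq2 and 1 was lower in voom, with sums of 4470 to 6850 CPM in TG and 5870 to 7000 CPM in WT, and in edgeR Agr2 was the only one of the 7 with an unadjusted p under 0.05 and without overlap (-0.65, adjusted p = 0.0532). Of 5 enteroendocrine genes (3 of them tested) and 4 tuft cell genes, 0 had an unadjusted p under 0.05 in edgeR or DESeq2, and voom called 1 enteroendocrine gene lower. Their sums were at most 39.2 and 62.4 CPM and overlapped between the groups, and the sum of 4 stromal genes was at most 0.298 CPM. The part of the Paneth, enterocyte, stem and goblet genes in the results below was not tested. In sorted populations, a smaller share of one cell type and less RNA per cell cannot be told apart.

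The 49 tested genes were then compared between TG and WT by edgeR's quasi-likelihood test on the whole table, with Benjamini-Hochberg adjustment over 11929 genes. A total of 26 proteasome genes (53.1%) were lower in TG and 0 were higher at an adjusted p under 0.05. At an unadjusted p under 0.05, 37 were lower and 0 higher, and DESeq2 and voom also called 0 higher. Of all tested genes, 9.65% were lower and 8.26% were higher. Of the proteasome genes, 45 reached an average log2 CPM of 3, and the 26 called genes (57.8% of the 45) were all among them, whereas 12.8% of all genes at that level were lower. The median log2 fold change (TG over WT) was -0.32 over the 49 genes and 0.01 over all tested genes, and single proteasome genes ranged from -1.33 for Psmb8 to 0.43 for Psmc3ip, which was not called. With TMM factors, all 4 TG values lay under all 4 WT values for 27 of the 49 genes, against 12% of all tested genes. With total counts this held only for Psma5, Psmb8 and Psmd14 among the 49. Statements below that levels did not overlap between the groups refer to TMM-scaled values, unless total counts or either scaling is named. DESeq2 called 27 proteasome genes lower, 26 of them shared with edgeR, against 9.89% of all genes it tested.

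**Figure D1:**
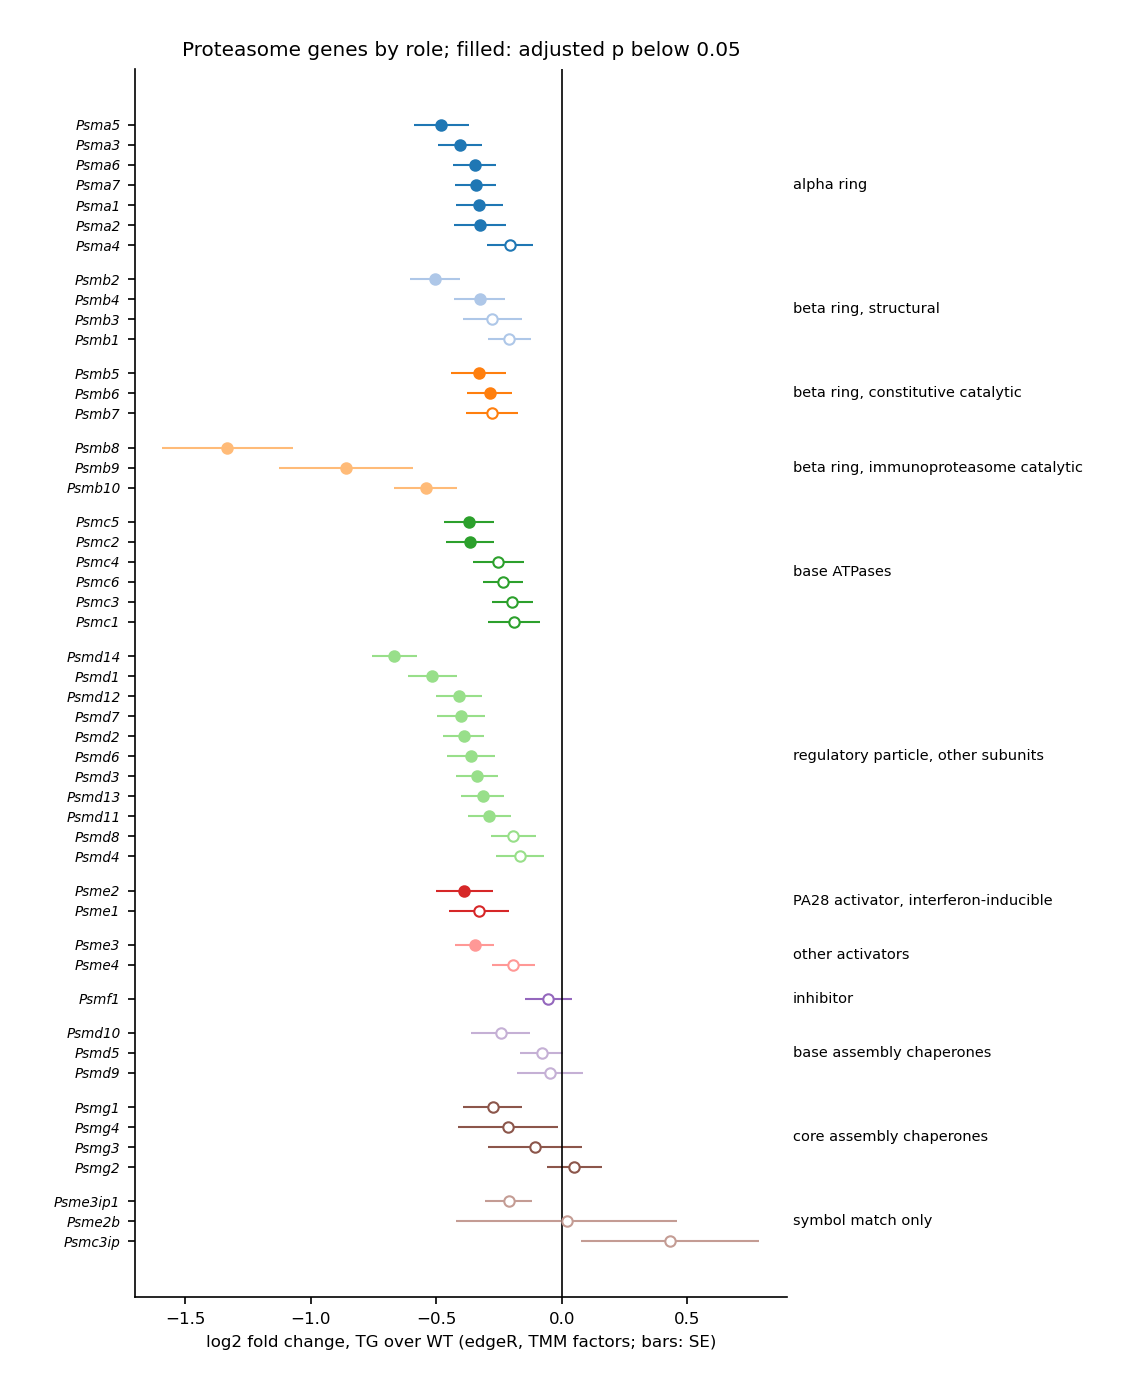
Log2 fold change of TG over WT (x axis, bars are SE) for each of the 49 tested proteasome genes, grouped by role; filled points had an adjusted p under 0.05 in edgeR. All 26 filled points lie left of 0, and Psmb8 lies farthest left at -1.33, while the assembly chaperones have open points from -0.28 (Psmg1) to 0.05 (Psmg2) and the inhibitor Psmf1 has one at -0.05.

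These counts depended on the scaling. With library sizes from total counts alone, 2 proteasome genes were lower (Psmd14, adjusted p = 0.0153, and Psmb8, adjusted p = 0.0274, edgeR), against 2.20% of all genes, and all tested genes then had a median log2 fold change of 0.12 instead of 0.01. The median over the proteasome genes moved with it, from -0.32 to -0.20, so that the difference from all tested genes was -0.32 with TMM factors and -0.33 with total counts. Among all called genes, 46.1% were higher with TMM factors and 75% with total counts. The sign was negative with TMM factors and positive with total counts for 4 of the 49 genes (Psmd5, Psmd9, Psmf1 and Psmg3), none of them called.

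The calls also depended on single libraries. Of the 26 called genes, 11 stayed called in each of the 8 fits without one library: Psma3, Psma5, Psmb2, Psmb8, Psmb10, Psmd1, Psmd2, Psmd7, Psmd12, Psmd14 and Psme3. Without TG 1 there were 11 calls and without TG 2 there were 12, and leaving out another library gave 19 to 28. In the 2 TG and 2 WT libraries lacking Y-linked counts, 3 genes were lower (Psmd14, Psmd1 and Psmb8) against 5.29% of all genes, with a median of -0.35 over the tested members. Within those with Y-linked counts, 1 was lower (Psmd14) against 0.865% of all genes, with a median of -0.27. The interaction between the group and the Y-linked split was called for 0 proteasome genes in edgeR, the smallest adjusted p was 0.89, and 0 had an unadjusted p under 0.05.

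The 31 constitutive 26S subunits were considered next. All 31 were fitted lower in TG, with log2 fold changes from -0.67 (Psmd14) to -0.17 (Psmd4) and a median of -0.33, and 21 passed the test. The sign was negative for all 31 with total counts and in both Y-linked subsets too. Summed over the 31 subunits, the level was 1201, 1174, 1339 and 1298 CPM in TG 1 to 4 and 1637, 1422, 1651 and 1577 CPM in WT 1 to 4. The highest TG library stood below the lowest WT library, WT 2. With total counts, the sums were 1239 to 1463 CPM in TG and 1382 to 1814 CPM in WT, and the ranges overlapped. Over all members, the sum with total counts was 1750 ± 140 CPM in TG and 2030 ± 292 CPM in WT, and with TMM factors 1680 ± 91.8 and 2100 ± 133 CPM (mean ± SD over the 4 libraries of a group). The difference between the group means with total counts was -272 CPM. It was -129 CPM without WT 3 and -341 to -238 CPM without another library. With TMM factors WT 2 lay nearest to TG, and 45 of the 51 genes had a level in it below their own WT mean, against 8 genes in WT 3, 15 in WT 1 and 28 in WT 4, and 43 to 48 genes in the TG libraries. With total counts WT 2 was the second highest WT library in the sum over all members (1957 CPM), and WT 1 was the lowest (1824 CPM).

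**Figure D2:**
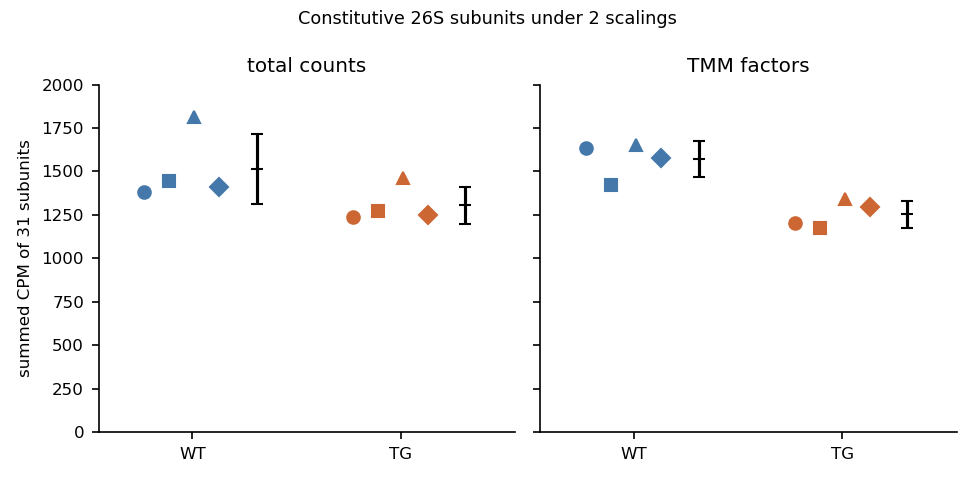
Summed CPM of the 31 constitutive 26S subunits (y axis) in each library, scaled by total counts (left) or TMM factors (right); symbols mark replicates 1 to 4 and bars the mean and SD of 4 libraries. With TMM factors all TG libraries (1174 to 1339) lie under all WT libraries (1422 to 1651), while with total counts TG 3 (1463) lies above WT 1 (1382), WT 2 (1446) and WT 4 (1411).

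**Figure D3:**
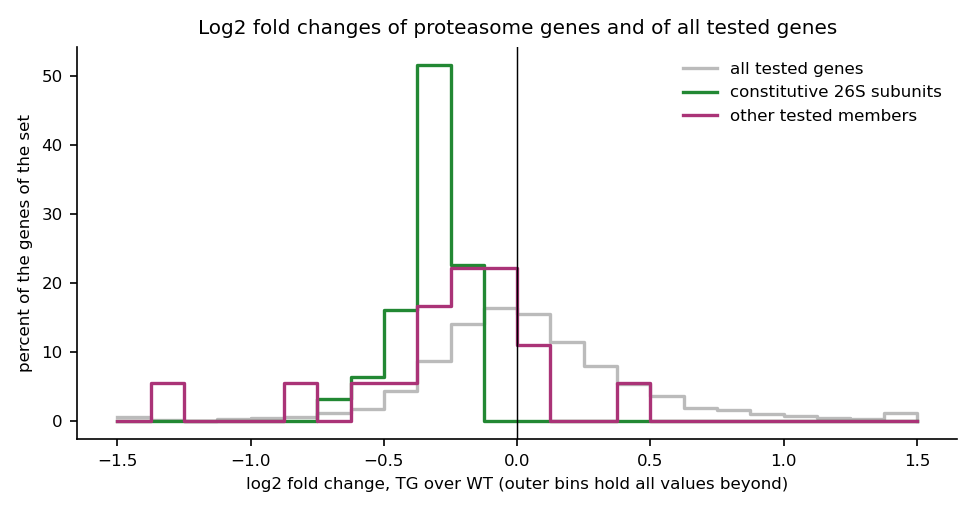
Share of genes (y axis, percent of each set) by log2 fold change of TG over WT (x axis, outer bins hold all values beyond) for all 11929 tested genes, the 31 constitutive 26S subunits and the 18 other tested members. The constitutive subunits all lie left of 0 and 16 of them fall between -0.375 and -0.25, whereas all tested genes are centred near 0.

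Per kb of canonical transcript, the constitutive subunits ranged in WT from 8.55 CPM per kb for Psma3 to 69.9 CPM per kb for Psma7. In TG, the ends of the range were the same genes, at 6.45 and 55.1 CPM per kb. The median SD of log2 CPM within a group was 0.124 over the proteasome genes and 0.186 over all tested genes.

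Among the regulatory particle genes, Psmd14 showed the most negative log2 fold change. Psmd14 encodes the metalloprotease that removes ubiquitin chains from a substrate as it enters the particle, and the gene lies on the + strand of chromosome 2 (GRCm39 chr2:61542026-61631607). Its level was 27.3, 24.8, 28.7 and 28.1 CPM in TG 1 to 4 and 43.1, 39.1, 46.0 and 45.0 CPM in WT 1 to 4. Every TG library was below every WT library, also with total counts. The level fell by 0.67 on the log2 scale (SE 0.089, adjusted p = 0.000695, edgeR), to 0.63 of WT, and the call held in all 19 alternative settings, with adjusted p from 4.16e-09 to 0.0209. Since Psmd14 was called in every setting, its proximal promoter is shown. The 250 bases before the RefSeq gene start (chr2:61541788-61542037 of GRCm39, + strand) read as follows, with matches to the 3 short motifs named below (ETS core, CCAAT box and GC box, either strand) in capitals.
Psmd14: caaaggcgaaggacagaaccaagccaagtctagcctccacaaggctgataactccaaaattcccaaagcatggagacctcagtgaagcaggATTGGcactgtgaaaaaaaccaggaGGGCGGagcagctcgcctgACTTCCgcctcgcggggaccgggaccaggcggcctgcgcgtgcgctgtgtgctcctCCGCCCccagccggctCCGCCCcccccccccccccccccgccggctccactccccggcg

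Psmd1 and Psmd2, the large scaffold subunits of the base, were lower too. Psmd1 had 41.8, 40.5, 51.5 and 45.3 CPM in TG and 66.1, 55.9, 68.8 and 65.3 CPM in WT, with a log2 fold change of -0.52 (adjusted p = 0.00358, edgeR). Psmd2 had 91.9, 90.3, 101 and 102 CPM in TG and 128, 118, 129 and 130 CPM in WT (-0.39, adjusted p = 0.00611). With TMM factors neither gene's groups overlapped, while with total counts both did (Psmd1 up to 56.3 CPM in TG and from 55.8 CPM in WT, Psmd2 up to 111 and from 108 CPM). In the lid, Psmd12 (-0.41), Psmd7 (-0.40), the inactive partner of Psmd14, Psmd6 (-0.36), Psmd3 (-0.34), Psmd13 (-0.315) and Psmd11 (-0.29) were called, with adjusted p from 0.00771 to 0.0315. The 2 remaining members of this group of 11, the ubiquitin receptor Psmd4 (-0.17, adjusted p = 0.234) and the lid subunit Psmd8 (-0.19, adjusted p = 0.156), did not pass. Psmd3 and Psmd6 lost the call without TG 1 or TG 2, Psmd13 without TG 1, TG 2, TG 3 or WT 4, and Psmd11 without any 1 TG library or WT 1, with adjusted p of at most 0.0944.

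The 6 ATPases that unfold the substrate were all fitted lower, and 2 were called. Psmc5 had 35.7, 31.2, 37.4 and 36.9 CPM in TG and 50.6, 41.5, 49.9 and 40.6 CPM in WT (log2 fold change -0.37, adjusted p = 0.0209, edgeR), with no overlap. Psmc2 ranged from 33.3 to 38.8 CPM in TG and from 41.2 to 51.5 CPM in WT (-0.365, adjusted p = 0.0167). Both lost the call without TG 1 or TG 2, with adjusted p up to 0.0705 for Psmc2 and 0.075 for Psmc5. Psmc1 was the ATPase gene nearest to 0 (-0.19, adjusted p = 0.218), and its ranges overlapped.

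In the core particle, 10 of the 14 alpha and constitutive beta genes were lower. Of the alpha ring, which gates entry to the barrel, 6 of 7 genes were called. Psma5 had 15.4, 19.3, 19.8 and 17.2 CPM in TG and 25.7, 21.5, 26.4 and 26.3 CPM in WT, with a log2 fold change of -0.48 (adjusted p = 0.00893, edgeR). Its groups did not overlap on either scaling. Psma3 had 21.7 to 24.6 CPM in TG and 29.4 to 32.1 CPM in WT (-0.41, adjusted p = 0.00669). Psma6 (-0.35), Psma7 (-0.34), Psma1 (-0.33) and Psma2 (-0.325) had adjusted p from 0.012 to 0.0425 and lost the call without TG 1, with adjusted p of at most 0.153. Without TG 2 the calls of Psma1, Psma2 and Psma6 were lost, without WT 3 or WT 4 those of Psma1 and Psma2, and without WT 1 that of Psma2. Psma4 was not called (-0.20, adjusted p = 0.136), but was called without WT 2 (adjusted p = 0.0431).

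Of the beta subunits without a proteolytic site, Psmb2 had 29.5, 31.1, 36.4 and 32.0 CPM in TG and 45.7, 39.3, 50.3 and 47.9 CPM in WT. Its groups did not overlap, and the log2 fold change was -0.50 (SE 0.099, adjusted p = 0.00423, edgeR). Psmb4 was called at -0.33 (adjusted p = 0.0388), but its ranges overlapped, and the call was lost without any of TG 1, TG 2, TG 4, WT 1, WT 3 or WT 4 (adjusted p up to 0.139). Psmb1 (-0.21, adjusted p = 0.103) and Psmb3 (-0.28, adjusted p = 0.115) were not called.

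The constitutive catalytic subunits are each replaced by an inducible one in the immunoproteasome, and both kinds are described side by side here. Psmb5, the chymotrypsin-like subunit, had 17.4, 14.6, 15.1 and 17.6 CPM in TG and 23.2, 18.2, 19.9 and 20 CPM in WT (log2 fold change -0.33, SE 0.109, adjusted p = 0.0483, edgeR). Psmb6, the caspase-like subunit, had 42.8, 40.0, 47.2 and 43.8 CPM in TG and 57.9, 47.3, 54.4 and 52.6 CPM in WT (-0.29, SE 0.089, adjusted p = 0.0382). Neither gene's groups overlapped, and for Psmb6 the highest TG and the lowest WT library were 47.2 and 47.3 CPM. Both calls were lost without TG 1, TG 2, WT 1, WT 3 or WT 4, that of Psmb5 also without TG 3 and with a Y-linked covariate (adjusted p = 0.0566) and that of Psmb6 also without TG 4, with adjusted p up to 0.149 for Psmb5 and 0.121 for Psmb6. Psmb7, the trypsin-like subunit, ranged from 32.1 to 38.0 CPM in TG and from 35.2 to 47.4 CPM in WT and was not called (-0.28, adjusted p = 0.0729), but was called without WT 2 (adjusted p = 0.0157).

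The inducible catalytic genes Psmb8, Psmb9 and Psmb10 were all called lower, and their median log2 fold change was -0.86. Psmb8, the inducible counterpart of Psmb5, had 11.7, 9.50, 11.7 and 6.92 CPM in TG 1 to 4 and 25.9, 23.5, 36.1 and 15.3 CPM in WT 1 to 4. WT 3 was the highest and WT 4 the lowest WT library, and the groups did not overlap on either scaling. The level fell by 1.33 on the log2 scale (SE 0.26, adjusted p = 0.00935, edgeR), to 0.397 of WT, and stayed called in every fit without one library. In the libraries lacking Y-linked counts it was -1.22 (adjusted p = 0.00132), and within those with them -1.445 (adjusted p = 0.303).

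Psmb10, the counterpart of Psmb7, had 27.5, 26.7, 29.4 and 22.5 CPM in TG and 38.8, 31.8, 48.3 and 35.6 CPM in WT. All TG libraries were below all WT libraries, and the log2 fold change was -0.54 (SE 0.13, adjusted p = 0.00997, edgeR). Psmb9, the counterpart of Psmb6, had 7.26, 6.61, 9.82 and 4.26 CPM in TG and 9.83, 12.8, 18.9 and 9.53 CPM in WT. TG 3 lay above WT 4, the log2 fold change was -0.86 (SE 0.268, adjusted p = 0.0474), and the call was lost in 6 of the 8 fits without one library (without TG 1, TG 2, TG 4, WT 1, WT 2 or WT 3, adjusted p up to 0.13) and with a Y-linked covariate (adjusted p = 0.0589). Of the PA28 genes, Psme2 had 39.4, 35.0, 41.3 and 33.5 CPM in TG and 51.3, 40.9, 58.7 and 44.6 CPM in WT (-0.39, adjusted p = 0.0303), with TG 3 above WT 2, and lost the call without TG 1, TG 2, TG 4, WT 1 or WT 3 (adjusted p up to 0.0923). Psme1 had 37.6 to 45.3 CPM in TG and 42.8 to 63.2 CPM in WT and was not called (-0.33, adjusted p = 0.0683), but was called without WT 2 (adjusted p = 0.032). In all, 4 of the 5 immunoproteasome genes were lower, and their summed level was 104.8 to 137.5 CPM in TG and 149.1 to 225.2 CPM in WT. With total counts, the sums were 100.8 to 150.2 CPM in TG and 133.4 to 247.4 CPM in WT, and the ranges overlapped.

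**Figure D4:**
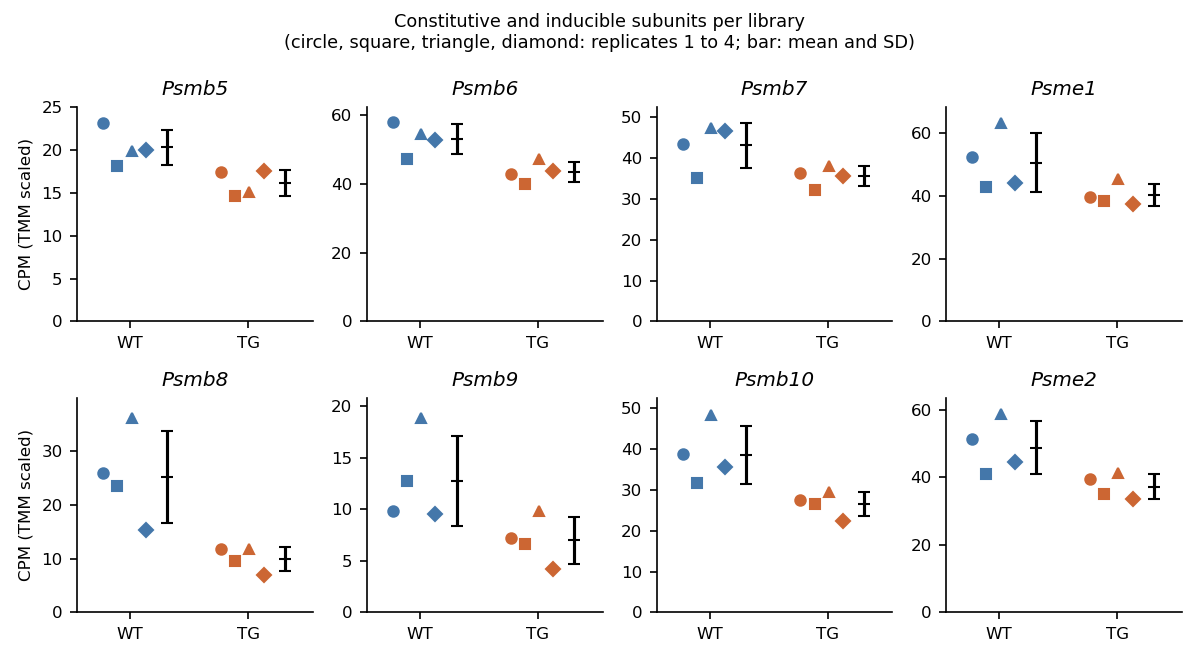
TMM-scaled CPM (y axes) of the constitutive catalytic genes Psmb5, Psmb6 and Psmb7, the PA28 genes Psme1 and Psme2 and the inducible catalytic genes Psmb8, Psmb9 and Psmb10 in each library; symbols mark replicates 1 to 4 and bars the mean and SD (n = 4). Psmb8 lies at 6.92 to 11.7 CPM in TG and at 15.3 to 36.1 CPM in WT, with WT 3 highest for the 5 inducible genes.

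The ratio of each inducible gene to its counterpart was taken within a library, on counts per length, where the library scaling cancels. Psmb8 to Psmb5 was 0.327 ± 0.0848 for TG and 0.655 ± 0.23 for WT (n = 4 each, with SD), a difference of -0.97 on the log2 scale with a pooled SD of 0.47. Psmb9 to Psmb6 was 0.0924 ± 0.0266 in TG and 0.14 ± 0.048 in WT (log2 difference -0.59, pooled SD 0.48). That difference was -0.37 without TG 4, -0.39 without WT 3 and -0.36 in the libraries lacking Y-linked counts. Psmb10 to Psmb7 was 2.6 ± 0.291 in TG and 3.12 ± 0.36 in WT (log2 difference -0.26, pooled SD 0.17). All 3 ratios overlapped between the groups: the highest TG and lowest WT values of Psmb8 to Psmb5 were 0.406 and 0.4. The ratios use merged exon lengths, and with the length of the canonical transcript their levels differed (Psmb8 to Psmb5 in WT was 1.24, and Psmb10 to Psmb7 was 0.792), while the differences between the groups stayed as given.

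**Figure D5:**
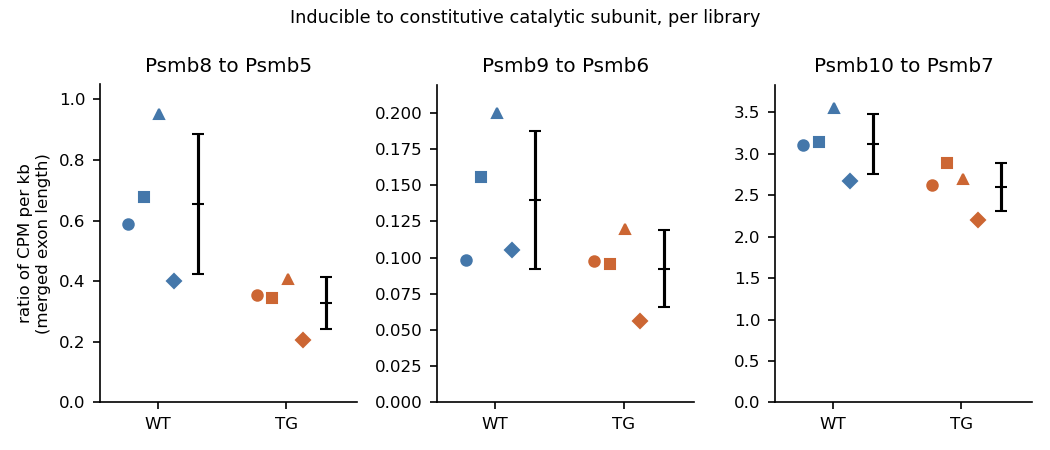
Ratio of an inducible to a constitutive catalytic gene (y axes, CPM per kb of merged exons) in each library; symbols mark replicates 1 to 4 and bars the mean and SD (n = 4). The TG means are below the WT means in all 3 panels (0.327 against 0.655 for Psmb8 to Psmb5), and the ranges overlap in each.

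Psmb8 and Psmb9 are neighbours in the MHC region of chromosome 17 (GRCm39 chr17:34416690-34420428 on the + strand and chr17:34400960-34406738 on the - strand), with Tap1 between them and Tap2 beyond Psmb8. The Psmb9 and Tap1 promoters overlap: their gene starts lie 226 bases apart on opposite strands, and windows from 250 bases before to 50 after the starts share 275 bases. Psme1 and Psme2 are likewise neighbours on chromosome 14 (chr14:55815190-55822034, + strand, and chr14:55824895-55829173, - strand). The 250 bases before the start of Psmb8 (RefSeq start, chr17:34416919-34417168, + strand) and Psmb9 (chr17:34406305-34406554, - strand) are shown since these were the lowest log2 fold changes of all members. In capitals are a gamma-activated site (TTCNNNGAA) in Psmb8, and a GC box and CCAAT box in Psmb9.
Psmb8: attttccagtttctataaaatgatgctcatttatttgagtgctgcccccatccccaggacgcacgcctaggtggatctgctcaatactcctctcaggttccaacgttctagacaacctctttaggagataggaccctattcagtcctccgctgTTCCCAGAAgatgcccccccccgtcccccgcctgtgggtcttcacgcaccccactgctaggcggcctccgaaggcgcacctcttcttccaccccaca
Psmb9: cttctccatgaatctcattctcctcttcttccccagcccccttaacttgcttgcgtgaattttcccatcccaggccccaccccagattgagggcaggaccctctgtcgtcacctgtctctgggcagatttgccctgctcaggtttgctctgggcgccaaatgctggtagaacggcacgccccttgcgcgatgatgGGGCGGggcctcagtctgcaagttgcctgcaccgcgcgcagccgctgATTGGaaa

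Promoter windows of the RefSeq table (GRCm38.p6) from 250 bases before to 50 after the gene start were matched for 43 of the 51 genes and searched on both strands for short motifs. Matches describe letters and are not binding sites. The ETS core GGAAGT was in 20 of 43 windows (46.5%), against 26.5% of all 27025 genes in the table and 32.6% of those tested here. The GC box GGGCGG was in 55.8% (all 38.2%, tested 69.8%) and CCAAT in 37.2% (all 41.1%, tested 43.2%), and some letters belong to more than one match. The antioxidant response element core TGACNNNGC, the letters read by Nfe2l1 and Nfe2l2, was in 6 windows (14.0%, all 14.0%, tested 17.1%): Psmb5, Psmb6, Psmc6, Psmd9, Psmd12 and Psme4. Of these, Psmb5, Psmb6 and Psmd12 were called lower. The gamma-activated site was in Psmb8, Psmd2 and Psmg1 (6.98%, all 9.55%, tested 8.17%). The interferon-stimulated response element core GAAANNGAAA was in 5 windows (11.6%, all 3.99%, tested 3.48%): Psmb3, Psmd4, Psmd9, Psme1 and Psmg4, of which 0 were called. Matches in called genes are shown for the antioxidant response element core (Psmb5 and Psmb6) and the ETS core (Psmc2, Psmd13 and Psma2), each in capitals with its flanks. In GRCm39 these stretches lie at chr14:54855481-54855509 (Psmb5, - strand), chr11:70416164-70416192 (Psmb6, + strand), chr5:21990178-21990203 (Psmc2, + strand), chr7:140462207-140462232 (Psmd13, + strand) and chr13:14787648-14787673 (Psma2, + strand).
Psmb5: cgtgaagttgTGACGTCGCggcgttgcca
Psmb6: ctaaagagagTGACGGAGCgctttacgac
Psmc2: accagtgagcACTTCCgggatggggc
Psmd13: gaagtttagcGGAAGTcaagaacgcg
Psma2: aagtccgcccACTTCCccgcctcctc

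Activators, an inhibitor and assembly chaperones act on the proteasome without being part of the 26S particle. Psme3, the nuclear PA28 gamma activator, had 69.9, 68.3, 76.8 and 73.8 CPM in TG and 93.0, 88.9, 95.3 and 90.2 CPM in WT. The groups did not overlap, and the log2 fold change was -0.35 (SE 0.079, adjusted p = 0.00885, edgeR). Psme4, the PA200 activator, was not called (-0.19, adjusted p = 0.136), and neither was Psmf1, an inhibitor (-0.05 with TMM factors and 0.06 with total counts, adjusted p = 0.729 and 0.788). Of the 7 assembly chaperones, which build the core particle and base and leave them again, 0 were called by edgeR, DESeq2 or voom, and 1 had an unadjusted p under 0.05 in each. Their log2 fold changes ran from -0.28 (Psmg1) to 0.05 (Psmg2), with a median of -0.10 against -0.33 for the 31 constitutive subunits, and this difference was not tested. Psmd10, the chaperone on chromosome X, had 8.59 to 9.71 CPM in TG and 10.4 to 11.3 CPM in WT without overlap (-0.24, adjusted p = 0.162), and Psmd9 differed in sign between settings (-0.045 with TMM factors and 0.076 with total counts).

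Genes of the pathway outside the Psm family were 39 found of 40 listed, and Paaf1 was not analysed here. Of the 39, 11 (28.2%) were lower and 0 were higher. The shares over all tested genes were 9.65% lower (12.8% at an average log2 CPM of at least 3) and 8.26% higher. The median log2 fold change was -0.24 over the 39 genes and 0.01 over all tested genes. With total counts, edgeR called 0 of the 39, while 2.20% of all genes were lower. At an unadjusted p under 0.05, 22 of the 39 were lower and 2 higher with TMM factors, and 7 were lower and 2 higher with total counts. Among 16 genes for assembly, docking and shuttling, 6 were lower, led by Vcp, the ATPase that extracts ubiquitin-tagged proteins (159, 136, 182 and 190 CPM in TG, 218, 226, 235 and 261 CPM in WT, log2 fold change -0.49, adjusted p = 0.0077, edgeR). Its cofactor Nploc4 (-0.39), the shuttle factors Rad23b (-0.40) and Ubqln1 (-0.30), the proteasome-bound deubiquitinase Usp14 (-0.305) and the thioredoxin-like Txnl1 (-0.32) were also lower. Usp14 and Txnl1 lost the call without TG 1, TG 2 or WT 4 and Ubqln1 without TG 1, TG 2, TG 3 or WT 4 (adjusted p up to 0.0869). Pomp, which matures the core particle, was not called (-0.33, adjusted p = 0.0529), but was called in voom, with a Y-linked covariate and without TG 4 or WT 2 (adjusted p from 0.0203 to 0.049). The deubiquitinase Uchl5 (-0.31) was lower among 3 subunits without a Psm symbol, and Uba6 (-0.37) among 6 genes for ubiquitin and its activation. Uchl5 lost the call without any 1 TG library or WT 4, and Uba6 without TG 1, TG 2, TG 4, WT 2 or WT 4 (adjusted p up to 0.108).

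Of 4 genes for transcriptional control of subunit genes, 0 were called by edgeR, DESeq2 or voom, and 2 (Nfe2l2 and Ddi2, both higher) had an unadjusted p under 0.05 in edgeR. Nfe2l1, the factor that raises subunit transcription when proteasome activity is low, had 74.4 to 75.1 CPM in TG and 72.5 to 92.5 CPM in WT (log2 fold change -0.16, adjusted p = 0.202, edgeR). Nfe2l2, the related factor of the oxidative stress response, had 44.4 to 47.3 CPM in TG and 33.0 to 42.0 CPM in WT without overlap, and was not called (0.22, adjusted p = 0.108). Genes for interferon control and class I peptide loading were listed too. B2m, the light chain of MHC class I, had 202, 201, 217 and 205 CPM in TG and 297, 269, 281 and 266 CPM in WT (-0.43, adjusted p = 0.00362, edgeR), and the groups did not overlap. Tap2, a chain of the peptide transporter next to Psmb8, was lower too (-0.52, adjusted p = 0.0246), with overlap and with the call lost without TG 1, TG 2, TG 4, WT 1 or WT 3 (adjusted p up to 0.0749) and in voom (adjusted p = 0.0639). Tap1, which shares its promoter region with Psmb9, was not called (-0.40, adjusted p = 0.146), nor were Irf1 (-0.24, adjusted p = 0.193) and Nlrc5, the class I transactivator (-1.28, adjusted p = 0.0614, 0.38 to 1.69 CPM in TG and 1.64 to 4.89 CPM in WT). Nlrc5 was called in DESeq2 and without WT 1 or WT 4 (adjusted p from 0.0303 to 0.0433).

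Some members share sequence with neighbours. The libraries were made with a stranded kit, but the strand setting of the counting was not stated, so reads of a member and an opposite-strand gene may not be told apart. Opposite-strand exons cover over 20% of the merged exons of 6 members (Psmb7, Psmc3ip, Psmc5, Psmd13, Psme1 and Psme2), the highest being Psmb7 with 46.8%, and 19.6% of Psmb9, by exons of Tap1. Pseudogenes with a Psm symbol followed by -ps held at most 1 count each. Copies of members under other names were not searched.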

How the data were processed

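RNA was measured by RNA-seq in 8 libraries of FACS-sorted mouse Paneth cells, 4 TG and 4 WT, with groups and replicate numbers taken from the labels. The authors deposited 1 table of whole-number read counts per Ensembl gene ID. The submitters' processing notes name FastQC 0.12.0, STAR 2.7.0a, DESeq2 and the build mm39, and the counting tool, its strand setting and its treatment of reads with several alignments were not stated. Symbols, positions and exon lengths came from GENCODE M39 (GRCm39), which matched 54749 of 55414 IDs.

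Counts were tested with edgeR 4.0.16 in R 4.3.3 (robust quasi-likelihood fits, TMM factors, default filter by group, group as the only term), with Benjamini-Hochberg adjustment over the 11929 tested genes at 0.05. Standard errors are the absolute log2 fold change over the square root of F. Sums and ratios of members were described per library without a test. Depth was 13107397 to 16218434 counts. Replicate pairs differed by a chi-square per degree of freedom of at least 5.2 over genes with 10 or more counts in a pair, so all libraries were counted separately.

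The members, gene lists and tests were chosen with earlier results of these data known. Named with values were the 5 immunoproteasome genes and their 3 constitutive counterparts, the 20 further called members of smallest p, the extremes of each role group, members below the filter, called pathway genes and 6 pathway genes chosen by name, except that the single values of 1 called pathway gene and of 1 immune marker gene are not reported here. Genes outside this rule (Psmb3, Psmd8, Psmg3, Psmd5, Ddi2 and others named by motif or overlap) were added after their values were seen. Alternatives were DESeq2 1.42.0, RLE factors, voom in limma 3.58.1, total counts, library sizes without alpha-defensin genes, no filter, 1 CPM in 4 libraries, a replicate block, a Y-linked covariate, fits within the Y-linked subsets and leaving out each library. The canonical transcript length was added after the data were seen. Promoter windows are those of RefSeq (GRCm38.p6), and the coordinates printed are exact matches in GRCm39. Psmg2 and Psma8 sequence was not used here.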

Additional observations from a re-analysis of the deposited data

Results flagged for a closer look

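In groups of 4 libraries, the levels (CPM, TMM scaled) of 5 proteasome genes had 1 library apart from the other 3, by a gap that took most of the range of the group. With 106 groups examined, 5.3 such cases are the number that chance gives. Psma5 was 21.5 CPM in WT 2 and 25.7 to 26.4 CPM in WT 1, WT 3 and WT 4 (gap over range 0.87). WT 3 was high for Psmd12 (43.6 against 38.8 to 39.6 CPM, 0.851), Psmc6 (44.2 against 41.5 to 41.9 CPM, 0.857) and Psmg1 (12.3 against 11 to 11.2 CPM, 0.857). TG 3 was high for Psmc1 (43.6 against 35.7 to 36.7 CPM, 0.874).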

How the results depend on the processing

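Proteasome genes lower in TG numbered 26, and 24 to 28 under DESeq2, voom, RLE factors, exclusion of alpha-defensin genes, other filters and the Y-linked covariate. With total counts only 2 were called, within libraries without Y-linked counts 3, within those with them 1, and without one library 11 to 28. In the same order, the immunoproteasome genes lower were 1, 1, 0 and 2 to 4, the pathway genes lower 0, 3, 1 and 5 to 14, and all genes lower 262, 638, 104 and 550 to 1183. All genes higher were 500 and 113 within these subsets and 485 to 1045 without one library. The median log2 fold change of the proteasome genes moved to -0.203 with total counts. Both subsets hold 2 libraries a group. With total counts, all tested genes had a median log2 fold change of 0.12 instead of 0.01. The part of either in the smaller numbers of calls was not tested, and these data do not show which scaling is right.

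The sign changed in at least 1 alternative for 6 of the 49 tested members, none of them called. Psmd9 was 0.025 with voom, 0.076 with total counts, 0.073 in the libraries with Y-linked counts and -0.121 to 0.033 without one library. Psmf1 was 0.063 with total counts and 0.06 with Y-linked counts. Psmg2 was -0.005 to 0.097 without one library. Psmd5 was 0.035 with total counts and 0.01 in the libraries without Y-linked counts, and Psmg3 was 0.013 with total counts. Psme2b, at 0.021, ranged from -0.424 to 0.436 and was negative in 7 of the 17 alternatives that gave it a value. For the genes chosen by the naming rule, 866 of 1082 values under an alternative stayed on their side of the threshold with the same sign. The deviations of same-numbered TG and WT libraries from their group means correlated at 0.08, 0.07, 0.29 and 0.23, so the replicate numbers were not taken as pairs. A replicate block gave 28 proteasome genes lower. With it the call of Uba6 was lost (adjusted p = 0.0519), and Psme1 (0.0291), Psmb7 (0.0483), Pomp (0.0313), Nlrc5 (0.0184) and Tap1 (0.0263) were called, so that 5 of 5 immunoproteasome genes were lower. Without the low-count filter these 5 genes were called as well, with adjusted p from 0.000472 to 0.0474.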
